A study of Mus musculus with 3 samples.

Results

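The genes described here encode 10 proteins of the extracellular matrix of cartilage, or of the surface of its cells, out of 32285 genes counted in mouse fracture callus. They are Acan, Vcan, Hapln1, Matn1, Matn2, Matn3, Matn4, Cnmd, Snorc, and Prg4. The 10 were taken as a fixed list of symbols, and all 10 were found once in the gene annotation of the files. The groups of cells compared below were made without them, since cells were grouped by Col2a1 (type II collagen), Col10a1 (type X collagen), and Aspn (asporin). Only the description of cells rich in Prg4 and the ranking of cells by a gene's own UMIs used the 10 genes themselves.

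Cartilage resists pressure because aggrecan, a core protein loaded with sulfated sugar chains, is tied to long hyaluronan strands by link protein. Acan encodes aggrecan, Hapln1 encodes link protein, and Vcan encodes versican, a related proteoglycan that is better known from loose connective tissue. Matrilins, encoded by Matn1 to Matn4, are adaptors between collagen fibrils and other matrix proteins. Cnmd encodes chondromodulin, a membrane-anchored protein of avascular cartilage known to hold back vessel growth. Snorc encodes a small membrane proteoglycan of chondrocytes, and Prg4 encodes lubricin, the lubricant of joint surfaces and tendon sheaths. In a callus that heals through cartilage, chondrocytes first deposit a matrix rich in type II collagen, and then enlarge and switch to type X collagen before bone replaces them.

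The cells came from mice of a C57BL/6 background with a femoral fracture. Per the paper, the femur was cut and pinned with steel through the marrow, and buprenorphine was given against pain before and after surgery. The paper does not name the genotype of the mice used for sequencing. Calluses were taken 7, 10, and 14 days after the fracture, cleaned of marrow, digested with collagenase, and sorted for live cells without CD45, CD31, or TER119 (markers of blood, endothelial, and erythroid cells). The age, the sex, and the number of animals behind each library were not given in the labels. Each day had 1 library of single cells and no replicate, so no test between days was possible, and day and library cannot be told apart.

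Each droplet assay counts mRNA molecules by unique molecular identifiers (UMIs) near the 3′ end, and levels are given as CPM, a gene's share of all UMIs of the same cells, scaled so that 1 UMI per 10,000 is 100 CPM. CPM was not divided by transcript length. The limits of 500 to 5000 genes, at most 10% mitochondrial UMIs, and at most 5% hemoglobin UMIs left 7017, 6593, and 9853 cells at days 7, 10, and 14. The day 7 library stood apart, because 93.6% of these cells had a UMI of Ptprc, which encodes CD45, against 0.091% and 1.76% at days 10 and 14. Cells without a Ptprc UMI were used below and numbered 447, 6587, and 9680, with a median of 6763, 17372, and 15838 UMIs. Of the 447 cells at day 7, 47.4% had more UMIs of 5 skeletal genes than of 11 hematopoietic genes. The libraries shared 29 to 42 cell barcodes in pairs.

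Col2a1-high cells, with at least 100 Col2a1 UMIs per 10,000 UMIs, numbered 116, 3715, and 3230 at days 7, 10, and 14. Col2a1-low cells, with under 10, numbered 283, 1888, and 4288. Col10a1-high cells, cut in the same way at 100 per 10,000, numbered 6, 476, and 1116, and Aspn-high cells, with at least 20 Aspn UMIs per 10,000, numbered 13, 1464, and 3184. Groups under 20 cells were not compared. The label of mesenchymal callus cells held for days 10 and 14, where the 8 neutrophil markers summed to 8.02 and 696 CPM in Col2a1-low cells. It did not hold for the Col2a1-low cells of day 7, where they summed to 51087 CPM with 8 of 8 markers present, and 71 of these cells had more skeletal than hematopoietic UMIs.

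The genes lie apart in the genome, with 1 exception (GENCODE M21 annotation of GRCm38, to which mm10 corresponds). Vcan (chr13:89655312-89742509, minus strand) and Hapln1 (chr13:89539796-89611652, plus strand) point toward each other across a gap of 43659 bases with no annotated gene between them. Acan (chr7:79053483-79115099, plus strand) ends 2 bases from the end of Hapln3, another link protein gene, on the minus strand. The others are Matn1 (chr4:130944385-130955475), Matn2 (chr15:34306677-34436273), Matn3 (chr12:8947929-8972028), and Snorc (chr1:87470271-87475482) on the plus strand, and Matn4 (chr2:164389393-164405160), Cnmd (chr14:79637690-79662170), and Prg4 (chr1:150449412-150466165) on the minus strand. Matn2, Matn4, and Prg4 each overlap a protein-coding gene on the other strand, Prg4 by 524 bases with Tpr, and Vcan overlaps an annotated antisense gene. Counts of overlapping genes are uncertain where the use of strand in counting was not stated.

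RefSeq promoter windows of GRCm38.p6, each 300 bases long, were matched by symbol for 7 of the 10 genes, with 8 windows in all, and Matn2, Snorc, and Prg4 had none. The 250 bases before the annotated start are shown for Matn1 and Cnmd, whose UMIs came almost entirely from Col2a1-high cells at day 10, and for Vcan, whose UMIs came mostly from elsewhere, so that the starts of genes with opposite patterns can be read side by side.
Matn1, chr4:130944135-130944384, plus strand: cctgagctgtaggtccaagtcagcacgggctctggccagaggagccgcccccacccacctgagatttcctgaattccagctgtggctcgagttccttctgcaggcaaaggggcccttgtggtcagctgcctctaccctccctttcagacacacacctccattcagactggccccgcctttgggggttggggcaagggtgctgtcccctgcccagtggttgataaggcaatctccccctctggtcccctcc
Cnmd, chr14:79662184-79662433, minus strand: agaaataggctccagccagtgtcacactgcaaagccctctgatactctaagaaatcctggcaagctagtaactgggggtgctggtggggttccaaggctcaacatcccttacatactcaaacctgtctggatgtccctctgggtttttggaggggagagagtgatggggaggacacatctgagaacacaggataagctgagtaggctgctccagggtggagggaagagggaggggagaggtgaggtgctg
Vcan, chr13:89742513-89742762, minus strand: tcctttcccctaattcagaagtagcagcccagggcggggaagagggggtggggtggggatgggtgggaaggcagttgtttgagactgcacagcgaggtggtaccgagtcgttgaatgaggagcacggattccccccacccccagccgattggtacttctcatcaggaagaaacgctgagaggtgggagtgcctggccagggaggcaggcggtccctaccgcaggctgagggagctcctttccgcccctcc
No letters are in capitals, since capitals were to mark ACAAAG or ACAATG on either strand, the core letters bound by SRY-box factors such as Sox9, and neither was in these windows. The same held for all 8 windows of the 7 genes. Of 32851 promoter windows of this length, 28.6% held at least 1 of the words, so their absence describes these windows and bears on nothing else. The windows differed in base composition, with 74% G and C in Acan and 52.7% in the first window of Matn4.

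Across cells ordered by Col2a1, most of the genes rose together, while Vcan, Matn2, and Prg4 ran the other way. Over Col2a1-low cells, Col2a1-high cells had a level at least 2-fold higher for 7 of 9 measured genes at day 7, 7 of 10 at day 10, and 6 of 10 at day 14. The background of all genes with at least 50 UMIs was far smaller, with 8.69% higher at day 7, 7.25% at day 10, and 6.71% at day 14. At least 2-fold lower were 1, 3, and 3 of the genes, against a background of 19.5%, 18.3%, and 19%. The median log2 ratio was 3.81 over the 10 genes and −0.32 over all genes at day 10, and 3.48 and −0.34 at day 14. Intervals below are exact 95% intervals that cover counting error only, not the variation between cells or animals.

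**Figure D1:**
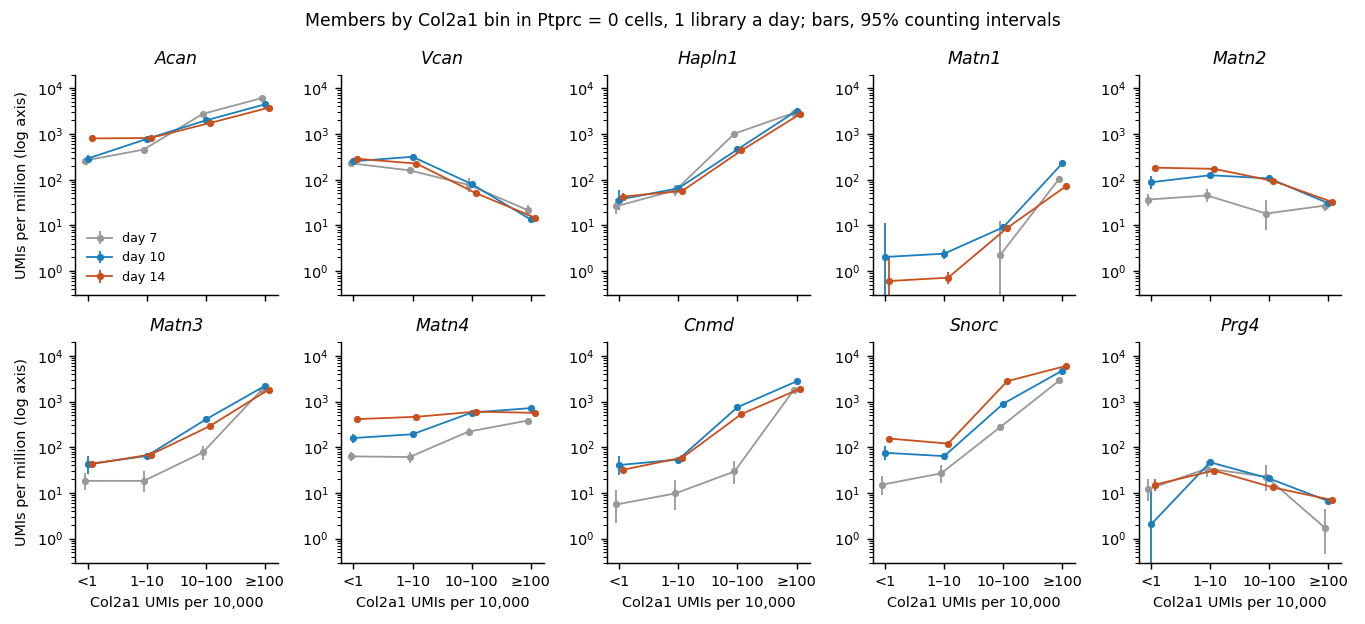
Level of each gene (vertical log axes, CPM) in cells without Ptprc, binned by Col2a1 UMIs per 10,000 (horizontal axes), for days 7 (gray), 10 (blue), and 14 (orange), with exact 95% counting intervals as bars. Acan, Hapln1, Matn1, Matn3, Cnmd, and Snorc climbed to the highest bin at each day, Vcan fell at days 10 and 14 to 13.5 and 14.9 CPM there, and Matn4 stayed between 412 and 601 CPM at day 14.

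Aggrecan mRNA was the most widely spread of the cartilage-type genes. Acan measured 6112, 4447, and 3759.9 CPM in Col2a1-high cells at days 7, 10, and 14, and 339, 772, and 817 CPM in Col2a1-low cells. The ratios were 18.1-, 5.76-, and 4.60-fold, with a log2 ratio of 2.53 (2.51 to 2.55) at day 10 and 2.20 (2.19 to 2.22) at day 14. With the day 7 Col2a1-low cells limited to the 71 that had more skeletal than hematopoietic UMIs, the day 7 ratio of Acan was 10.4-fold. Acan had the smallest ratio of the 6 genes that were at least 2-fold higher on all 3 days. After each cell was thinned to 2000 UMIs, 97.6% of Col2a1-high cells and 52.2% of Col2a1-low cells had an Acan UMI at day 10, and 95.4% and 60.1% at day 14. Among Ptprc-positive cells the share was 3.57% at day 7 (median 5045 UMIs per cell) and 27.2% at day 14 (median 9210 UMIs, 169 cells). The 8 chondrocyte markers summed to 313 and 3363 CPM in Ptprc-positive cells of days 7 and 14, against 1881 CPM in Col2a1-low cells of day 14. The day 14 Ptprc-positive cells are thus no blank for skeletal genes.

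Link protein mRNA, by contrast with Acan, was nearly restricted to cells with Col2a1. Hapln1 measured 2886, 3199, and 2756 CPM in Col2a1-high cells and 39.1, 64.4, and 56.1 CPM in Col2a1-low cells, ratios of 73.8-, 49.7-, and 49.1-fold. The day 7 ratio of Hapln1 was 45.0-fold against the 71 Col2a1-low cells with more skeletal than hematopoietic UMIs. After thinning, 90.2% of Col2a1-high cells had a Hapln1 UMI at day 10 and 12.2% of Col2a1-low cells did, while at day 14 the shares were 84.6% and 8.92%. In Ptprc-positive cells of day 14 the share was 17.8%, but those cells also held chondrocyte markers. They give no clean background for the share in Col2a1-low cells.

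The balance of both mRNAs shifted between the groups. There were 1.39 Acan UMIs for each Hapln1 UMI in Col2a1-high cells at day 10 (1.38 to 1.40) and 11.98 in Col2a1-low cells (11.4 to 12.6). At day 14 the ratios were 1.36 and 14.6, and in Aspn-high cells with under 10 Col2a1 UMIs per 10,000 they reached 18.3 and 23.7 at days 10 and 14. Ptprc-positive cells had 2.24 at day 7, 5.5 at day 10 (3.09 to 10.53, 6 cells), and 2.32 at day 14 (2.12 to 2.54), above the Col2a1-high and below the Col2a1-low value at days 10 and 14.

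The proteoglycan versican showed the opposite gradient. Vcan measured 21.7, 13.5, and 14.9 CPM in Col2a1-high cells and 202, 316, and 229 CPM in Col2a1-low cells at days 7, 10, and 14. It was 9.32-, 23.5-, and 15.4-fold lower in Col2a1-high cells, with a log2 ratio of −4.55 (−4.65 to −4.46) at day 10. Against the 71 more skeletal cells of day 7, Vcan was 17.1-fold lower. Vcan and Acan were nevertheless found in the same cells. At day 10, 337 of 1879 thinned Col2a1-low cells had a UMI of both, which was 34.4% of those with Acan and 50.8% of those with Vcan, where 52.2% of all these cells had Acan. Among Col2a1-high cells Vcan was seen in 2.48% at day 10 and 3.64% at day 14. Ptprc-positive cells of day 14 had a share of 11.2%. They held 6438 CPM of monocyte or macrophage markers beside skeletal mRNAs and were not shown to lack Vcan, so their share is no background.

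The 4 matrilins split into 3 patterns. Matn1, the matrilin best known from resting and proliferating cartilage, measured 106, 229, and 72.9 CPM in Col2a1-high cells at days 7, 10, and 14, and 0, 2.402, and 0.71 CPM in Col2a1-low cells. It was at least 73.3-fold higher at day 7, where the 0 was set to 3 UMIs over the group, and 95.4- and 102-fold higher at days 10 and 14. Against the 71 day 7 cells with more skeletal than hematopoietic UMIs, the bound for Matn1 was 39.7-fold. Matn3, a matrilin of cartilage collagen fibrils, measured 1826, 2195, and 1832 CPM against 18.4, 63.9, and 67.7 CPM, ratios of 99.5-, 34.3-, and 27.1-fold. After thinning, 12.2% and 10.3% of Col2a1-low cells had a Matn3 UMI at days 10 and 14, against 0.373% and 0.212% for Matn1.

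Matn2, a matrilin that is found widely outside cartilage, was lower where Col2a1 was high. It measured 27.2, 30.6, and 32.7 CPM in Col2a1-high cells against 40.1, 125, and 174 CPM in Col2a1-low cells. The gene was 4.07- and 5.31-fold lower at days 10 and 14, and 1.47-fold lower at day 7. With the day 7 Col2a1-low cells limited to the 71 that had more skeletal than hematopoietic UMIs, the day 7 difference was 2.66-fold, while the mean of each cell's CPM gave the other direction for Matn2 at day 7, with a log2 ratio of 0.61.

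Matn4, known from many tissues, had a gradient that differed by day. It measured 383, 717, and 566 CPM in Col2a1-high cells and 62.3, 192, and 461 CPM in Col2a1-low cells. The ratio was 6.15-fold at day 7, 3.74-fold at day 10 (log2 1.90, 1.86 to 1.94), and 1.23-fold at day 14 (log2 0.30, 0.27 to 0.32). After thinning, 4.81%, 19.8%, and 33.1% of Col2a1-low cells had a Matn4 UMI, while 41.3%, 59.3%, and 48.3% of Col2a1-high cells did. The share in Ptprc-positive cells was 0.42% at day 7 and 14.8% at day 14 (169 cells), where those cells held skeletal mRNAs and give no blank. With the Col2a1-low cells limited to those with more skeletal UMIs, the day 7 ratio of Matn4 was 3.36-fold.

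The membrane proteins followed Col2a1 closely. Cnmd measured 1766, 2761, and 1927 CPM in Col2a1-high cells and 7.24, 53.6, and 57.8 CPM in Col2a1-low cells, ratios of 244-, 51.5-, and 33.4-fold. Snorc measured 2897, 4763, and 6035 CPM against 19.8, 64.1, and 122 CPM, ratios of 146-, 74.3-, and 49.4-fold. Snorc was the only one of the 6 genes with steep gradients whose level in Col2a1-high cells was higher at each later day. In the bin of 10 to under 100 Col2a1 UMIs per 10,000, Snorc measured 277, 898, and 2787 CPM and Cnmd 29.5, 751, and 530 CPM, with Snorc the higher on each day. Col10a1 in that bin measured 3866 CPM at day 10 and 7043 CPM at day 14. Among its cells with under 1 Col10a1 UMI per 10,000, Cnmd was above Snorc at day 10 (930 against 363 CPM) and day 14 (865 against 674 CPM). At day 7 Snorc was the higher there too, with 150 against 26.3 CPM. With 1 to under 10 Col10a1 UMIs, Cnmd and Snorc measured 717 and 411 CPM at day 10 and 694 and 710 CPM at day 14. With 100 or more, Snorc measured 3912 and 6916 CPM at days 10 and 14.

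Lubricin mRNA was rare everywhere. Prg4 measured 1.70, 6.64, and 7.01 CPM in Col2a1-high cells and 20.8, 46.1, and 30.01 CPM in Col2a1-low cells, and was 6.95- and 4.28-fold lower in the former at days 10 and 14. At day 7 it had 4 and 43 UMIs in these groups, under the minimum of 50, and was not called.

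The second comparison asked which of the genes kept their level in cells rich in type X collagen. Cells were grouped within each library, and no order in time was computed. Col10a1-high cells were set against non-hypertrophic Col2a1-high cells, which had under 10 Col10a1 UMIs per 10,000 and numbered 3021 at day 10 and 1927 at day 14. None of the 10 genes was at least 2-fold higher in Col10a1-high cells, against 10.6% of all genes at day 10 and 10.3% at day 14. The 4 genes Cnmd, Matn4, Matn3, and Matn2 were at least 2-fold lower on both days, against a background of 11.9% and 10.7%. The medians over the 10 genes were log2 ratios of −0.45 and −0.71, against 0.05 and 0.03 over all genes.

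**Figure D2:**
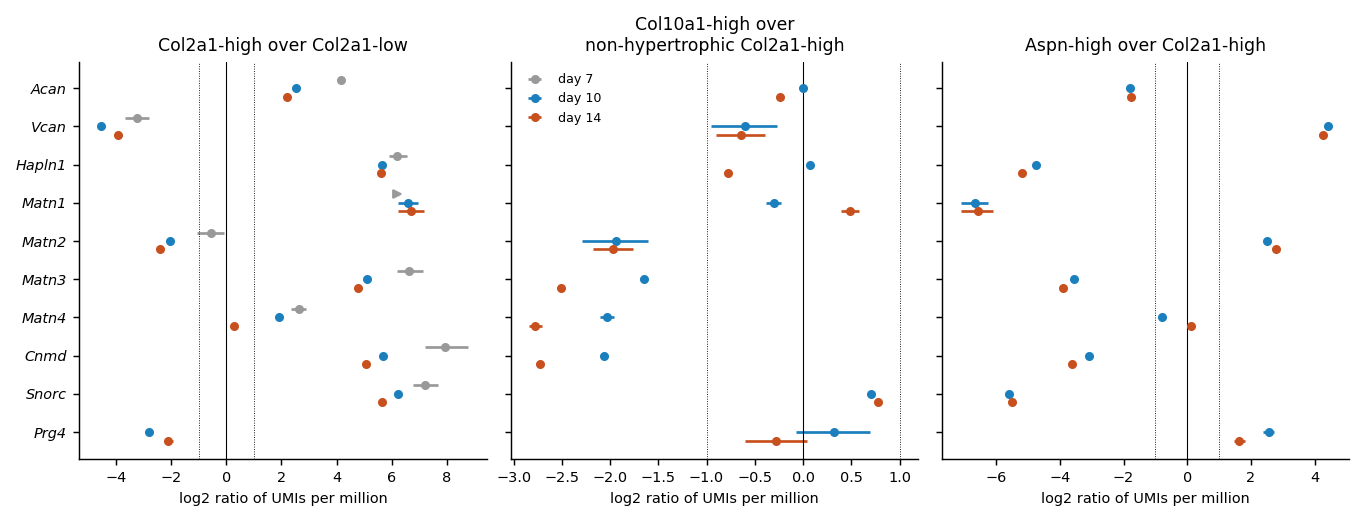
Log2 ratio of CPM for each gene (rows) in the comparisons by Col2a1, by Col10a1, and by Aspn (panels), at days 7 (gray), 10 (blue), and 14 (orange), with exact 95% counting intervals as bars, dotted lines at 2-fold, and an arrowhead for the lower bound of Matn1 at day 7. In the middle panel Cnmd, Matn2, Matn3, and Matn4 lie left of the 2-fold line on both days, and Snorc lies at 0.71 and 0.78.

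Chondromodulin mRNA was among the most reduced. Cnmd measured 735 CPM in Col10a1-high and 3062 CPM in non-hypertrophic cells at day 10, and 384 and 2546 CPM at day 14. It was 4.16-fold lower at day 10 (log2 −2.06, −2.10 to −2.02) and 6.63-fold lower at day 14 (−2.73, −2.76 to −2.70). The decline was graded: within Col2a1-high cells at day 10, Cnmd measured 3191, 2713, 1955, and 905 CPM in the bins of under 1, 1 to under 10, 10 to under 100, and 100 or more Col10a1 UMIs per 10,000. At day 14 the same bins had 2751, 2363, 1216, and 525 CPM.

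Matn3 and Matn4 were lower by a like range, but differed in how their levels ran over the Col10a1 bins. Matn4 went down at each step within Col2a1-high cells, with 849.6, 681, 429, and 241 CPM over the 4 Col10a1 bins at day 10. Matn3 stayed at 2307, 2347, and 2366 CPM in the first 3 bins of day 10 and then measured 927 CPM in the highest bin, whereas at day 14 it measured 1400.2 CPM already in the bin of 10 to under 100 and 606 CPM in the highest. Against non-hypertrophic cells, Col10a1-high cells had 4.09- and 6.84-fold less Matn4 and 3.14- and 5.70-fold less Matn3 at days 10 and 14. Matn2, which was scarce in both groups, measured 9.11 against 34.9 CPM at day 10 and 10.7 against 42.0 CPM at day 14.

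The aggregate-forming pair was kept in part. Acan measured 4316 CPM in Col10a1-high and 4304 CPM in non-hypertrophic cells at day 10, a log2 ratio of 0.0043 (−0.01 to 0.02), and 3283 and 3862 CPM at day 14 (−0.23, −0.25 to −0.22). Hapln1 measured 2955 and 2816 CPM at day 10 (log2 0.07, 0.05 to 0.09) and 1647 and 2817 CPM at day 14 (−0.77, −0.79 to −0.76). Hapln1 was not flat over the Col10a1 bins. At day 10, Col2a1-high cells with 10 to under 100 Col10a1 UMIs per 10,000 had 6057 CPM, above the 2579, 3454, and 3679 CPM of the other bins. At day 14 that bin had 3134 CPM and its neighbor below had 3072 CPM.

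Snorc was the only one of the 10 genes with a higher level in Col10a1-high cells on both days by intervals that leave out 0, though it missed the 2-fold line. It measured 6765 against 4145 CPM at day 10 (1.63-fold, log2 0.71, 0.69 to 0.72) and 8046 against 4701 CPM at day 14 (1.71-fold, log2 0.78, 0.77 to 0.78). Over the Col10a1 bins of Col2a1-high cells, Snorc went from 3955 to 4655, 7369, and 7607 CPM at day 10 and from 4448 to 4928, 8008, and 8716 CPM at day 14. Snorc was also high where Col2a1 was lower. In Col10a1-high cells with 10 to under 100 Col2a1 UMIs per 10,000, Snorc measured 3912 and 6916 CPM at days 10 and 14 and Acan 2049 and 2519.9 CPM, while Matn3 measured 72.0 and 49.5 CPM and Cnmd 141 and 131 CPM.

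Matn1 differed in direction between the days. It measured 189 CPM in Col10a1-high and 234 CPM in non-hypertrophic cells at day 10 (log2 −0.30, −0.38 to −0.23), and 79.7 and 56.7 CPM at day 14 (log2 0.49, 0.40 to 0.58). The day 10 value rested on 111 of the 476 Col10a1-high cells, which had 10 to under 100 Col2a1 UMIs per 10,000 and 42.2 CPM of Matn1. The 361 cells high in both collagens had 231 CPM of Matn1 at day 10, close to the non-hypertrophic cells, and at day 14 the 711 such cells had 107 CPM. Vcan was lower in Col10a1-high cells by log2 ratios of −0.60 and −0.65 but measured 9.71 and 14.7 CPM at day 10, and the interval for Prg4 held 0 on both days.

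**Figure D3:**
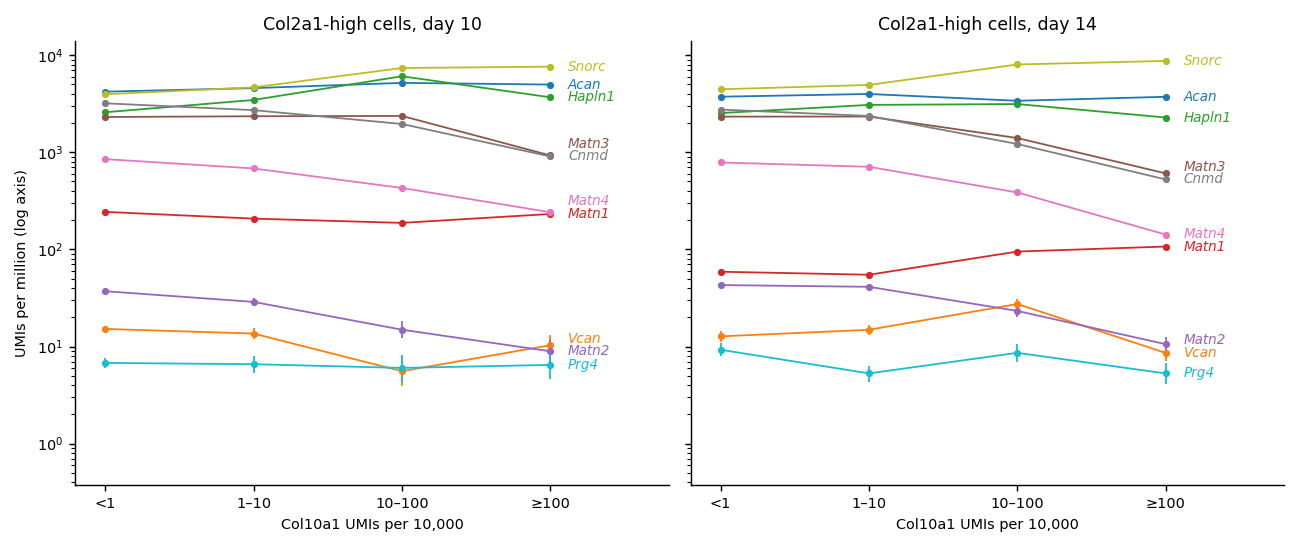
Level of each gene (vertical log axis, CPM) within Col2a1-high cells, over bins of Col10a1 UMIs per 10,000 (horizontal axis), at day 10 (left) and day 14 (right), with exact 95% counting intervals as bars. Cnmd fell from 3191 to 905 CPM at day 10 and from 2751 to 525 CPM at day 14 while Snorc climbed, and Acan stayed between 4204 and 5178 CPM at day 10.

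The other matrix genes were counted on fixed lists, chosen with earlier results of these data known. In Col2a1-high over Col2a1-low cells, 15 of 16 measured matrix genes of cartilage were at least 2-fold higher at days 10 and 14. The share over all genes was 7.25% and 6.71%. Col2a1 is 1 of the 15 and set the groups, so its call carries no information. Fmod was the exception, with 1001 against 986 CPM at day 10. In Col10a1-high cells 8 of the 16 were lower and 1 was higher at day 10, and 10 and 1 at day 14. Of all genes, 11.9% and 10.7% were lower and 10.6% and 10.3% were higher. The higher one was Chad, encoding chondroadherin, which measured 1565 against 622 CPM at day 14. Ucma, a gene of upper growth plate cartilage, had the steepest loss of the list, from 1376 to 130.2 CPM at day 10 and from 1349 to 60.01 CPM at day 14. The steps for Cnmd, Matn3, and Matn4 were thus smaller than that for Ucma.

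Genes that handle hyaluronan, the strand to which aggrecan binds, gave counts near the background. None of 11 measured genes of hyaluronan synthesis, binding, or breakdown was at least 2-fold higher in Col2a1-high than in Col2a1-low cells at days 10 and 14, and 2 were lower, Cd44 (the hyaluronan receptor) and Hmmr, beside a background of 7.25% and 6.71% higher and 18.3% and 19% lower. Cd44 measured 36.1 against 183 CPM at day 10 and 36.9 against 130.5 CPM at day 14. Tnfaip6, encoding a hyaluronan-binding protein of inflamed tissue, was the most abundant of the list in Col2a1-high cells at day 10, with 251 against 159 CPM in Col2a1-low cells. Of 3 measured genes of other proteoglycan cores, 2 were higher and 1 was lower at day 10, and 1 and 1 at day 14. Of the proteases of aggrecan and versican and their inhibitor, 6 of 8 were lower in Col2a1-high cells at day 10 and 4 of 8 at day 14. Adamts4, an aggrecanase, measured 1.90 against 31.2 CPM at day 10. In Col10a1-high over non-hypertrophic cells 3 of 6 measured were higher at day 10 and 3 of 7 at day 14. The share over all genes was 10.6% and 10.3%. On both days these 3 were Mmp13 (5123 against 156 CPM at day 10), Adamts1, and Timp3, and 1 gene of the list was lower at day 14.

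Sox9, the main transcription factor of cartilage, measured 681 against 233 CPM in Col2a1-high and Col2a1-low cells at day 10 and 471 against 175 CPM at day 14. Of the cartilage transcription factors on the list, 7 of 11 were at least 2-fold higher in Col2a1-high cells at day 10 and 6 of 10 at day 14. The background over all genes was 7.25% and 6.71%. In Col10a1-high cells, Sox5 was lower (21.2 against 94.6 CPM at day 10) and Runx2, Foxa2, and Mef2c, known from hypertrophic chondrocytes, were higher on both days. Of 10 measured, 3 were higher and 1 was lower on each day. Over all genes, 10.6% and 10.3% were higher and 11.9% and 10.7% lower. Sox9 measured 511 against 682 CPM there at day 10.

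The third comparison set Aspn-high cells against Col2a1-high cells, leaving out cells that were high in both. Postn, encoding periostin, measured 4021 and 3087 CPM in these Aspn-high cells at days 10 and 14, against 402 and 317 CPM in the Col2a1-high cells. At least 2-fold higher in Aspn-high cells were 3 of the 10 genes on both days, Vcan, Matn2, and Prg4, against a background of 16.7% and 18% of all genes. At least 2-fold lower were 6 of the 10 on both days, against 7.55% and 7.86%. The median log2 ratio was −2.44 and −2.71 over the 10 genes and 0.30 and 0.32 over all genes. The 13 Aspn-high cells of day 7 were too few to compare.

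Versican had the largest rise, at 265 CPM in Aspn-high cells against 12.5 CPM in Col2a1-high cells at day 10, and 246 against 12.9 CPM at day 14. Vcan was 21.2- and 19.0-fold higher, with log2 ratios of 4.40 (4.30 to 4.51) and 4.25 (4.14 to 4.35). Matn2 measured 167 against 29.3 CPM at day 10 and 212 against 30.6 CPM at day 14, ratios of 5.70- and 6.92-fold. Prg4 measured 38.8 against 6.60 CPM and 21.2 against 6.82 CPM, ratios of 5.87- and 3.104-fold. Col2a1-low cells as a whole had more Prg4 than these Aspn-high cells, at 46.1 and 30.01 CPM. Tnmd, the closest relative of Cnmd and a gene of tendon cells, was 9.58- and 16.8-fold higher in Aspn-high cells, opposite to Cnmd.

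Aspn-high cells were 22.2% of cells at day 10 and 32.9% at day 14 and held 50.03% and 68.2% of all Vcan UMIs. Among cells with under 10 Col2a1 UMIs per 10,000, Vcan measured 309.8 CPM in the Aspn-high ones and 325 CPM in those below 20 Aspn UMIs per 10,000 at day 10, and 265 and 165 CPM at day 14. There were 3.21 Acan UMIs for each Vcan UMI in the former at day 10 and 1.47 in the latter. At day 14 these values were 3.62 and 3.44.

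Aggrecan was the least reduced of the 6 genes that were lower in Aspn-high cells. Acan measured 1296 CPM in Aspn-high and 4467 CPM in Col2a1-high cells at day 10, and 1098 and 3773 CPM at day 14, 3.45- and 3.44-fold lower. The other 5 were lower by far more. Matn1 was 102- and 95.4-fold lower (2.28 against 233 CPM at day 10), Snorc 48.1- and 45.0-fold lower (101 against 4836 CPM), and Hapln1 26.7- and 36.2-fold lower (122 against 3254 CPM). Matn3 was 11.9- and 14.9-fold lower and Cnmd 8.57- and 12.4-fold lower. After thinning, 72.2% of all Aspn-high cells at day 10 and 74.8% at day 14 had an Acan UMI, against 19.6% and 11.7% for Hapln1.

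Matn4 was the 1 gene near parity. It measured 405 CPM in Aspn-high and 710.2 CPM in Col2a1-high cells at day 10 (log2 −0.81, −0.84 to −0.78), and 615 and 563 CPM at day 14 (log2 0.13, 0.11 to 0.15). The direction at day 14 depended on the settings, with log2 ratios from −0.16 to 0.21. After thinning, 37.9% and 43.0% of all Aspn-high cells had a UMI of Matn4 at days 10 and 14.

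Cells high in both Aspn and Col2a1 numbered 100 at day 10 and 82 at day 14, and none were found at day 7. Not every gene lay between the single groups in these cells. Matn4 measured 1035 CPM in cells high in both at day 10 and 704 CPM at day 14, above both the Aspn-high and the Col2a1-high cells on each day. Non-hypertrophic Col2a1-high cells had 804 and 744 CPM of Matn4, so the day 14 level was not above theirs. Cnmd measured 3049.6 CPM at day 10, above the 2754 CPM of cells high in Col2a1 alone, and 1832 CPM at day 14, below their 1929 CPM. Non-hypertrophic Col2a1-high cells had 3062 and 2546 CPM of Cnmd. Snorc lay between the single groups, with 1530.2 CPM at day 10 and 3029.7 CPM at day 14, as did Vcan with 57.3 and 108 CPM. Droplets that hold more than 1 cell were not called, and their part in these levels was not tested.

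**Figure D4:**
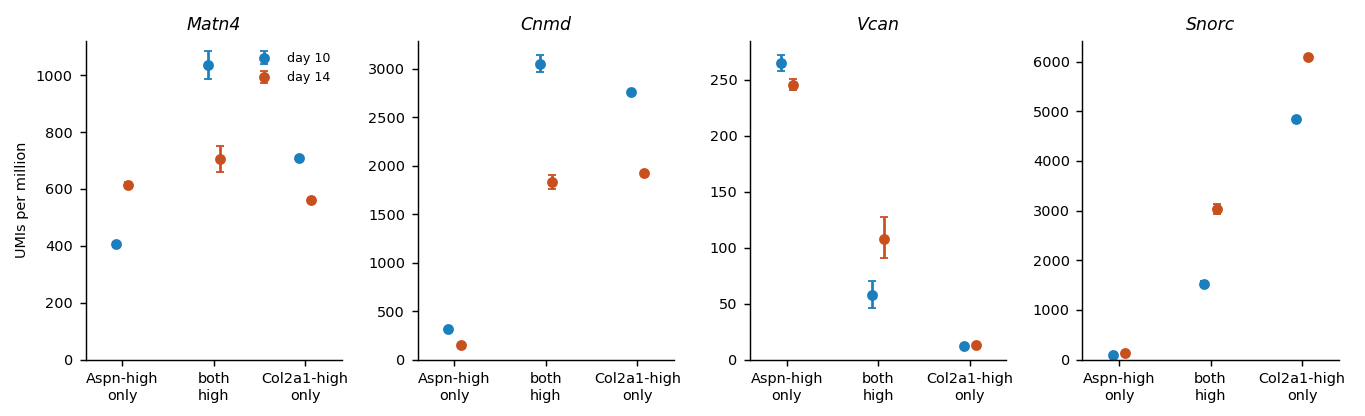
Level (vertical axis from 0, CPM) of Matn4, Cnmd, Vcan, and Snorc in cells high in Aspn alone, in both Aspn and Col2a1, and in Col2a1 alone (horizontal axis), at days 10 (blue) and 14 (orange), with exact 95% counting intervals as bars. Of the groups drawn, Matn4 is highest in cells high in both on each day, at 1035 and 704 CPM, while Vcan and Snorc lie between the single groups. The cells high in Col2a1 alone include cells that are also high in Col10a1.

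Between day 10 and day 14, levels within a group moved little for most of the 10 genes. At least 2-fold lower at day 14 were 2 of them in Aspn-high cells, 1 in Col2a1-high cells, and 1 in Col10a1-high cells, against a background of 2.31%, 1.63%, and 1.32% of all genes. None was at least 2-fold higher, against 1.54%, 1.95%, and 1.21%. Since 1 library stood for each day, these differences are between libraries.

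Matn1 was lower at day 14 in all 3 groups. It went from 229 to 72.9 CPM in Col2a1-high cells (3.14-fold, log2 −1.65, −1.70 to −1.60), from 189 to 79.7 CPM in Col10a1-high cells (2.37-fold), and from 6.45 to 1.53 CPM in Aspn-high cells (4.23-fold). This Aspn-high group includes the cells also high in Col2a1, and cells high in Aspn alone had 2.28 and 0.77 CPM of Matn1. After thinning, 20.7% of Col2a1-high cells had a Matn1 UMI at day 10 (19.4% to 22.1%) and 7.73% at day 14 (6.82% to 8.71%). At day 7 the share was 11.01% (5.82% to 18.4%), with 106 CPM. Fewer cells with the mRNA and less mRNA in each cannot be told apart from the summed levels alone.

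Cnmd was the other gene past 2-fold, falling from 515 to 203 CPM in Aspn-high cells (2.54-fold). It went from 321 to 156 CPM in those high in Aspn alone, which still include cells with 10 to under 100 Col2a1 UMIs per 10,000. Aspn-high cells with under 10 held 1095 of 11405 Cnmd UMIs at day 10 and 2323 of 9166 at day 14. They had 14.6 and 15.6 Acan UMIs per Cnmd UMI, against 2.83 and 5.70 in all Aspn-high cells. A fall of Cnmd in Aspn-high cells with little Col2a1 was thus not shown. The level of Cnmd went from 2761 to 1927 CPM in Col2a1-high cells (1.43-fold) and from 735 to 384 CPM in Col10a1-high cells (1.91-fold). In non-hypertrophic Col2a1-high cells Cnmd went from 3062 to 2546 CPM. In Col10a1-high cells Hapln1, Matn3, and Matn4 also measured 1.79-, 1.81-, and 1.80-fold less at day 14, each short of the 2-fold line. Snorc had a higher level at day 14 in Col2a1-high and Col10a1-high cells, by 1.27- and 1.19-fold. Non-hypertrophic Col2a1-high cells went from 4145 to 4701 CPM of Snorc. In Aspn-high cells its log2 ratio of 0.11 had no stable direction, with −0.17 when the 10% of cells with most UMIs were left out and −0.11 when Aspn-high began at 10 UMIs per 10,000.

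Prg4 and Matn1 were packed into few cells, unlike the rest. The 1% of cells with most UMIs of the gene held 51.0% of Prg4 UMIs at day 10 and 64.9% at day 14. For Matn1 they held 22.9% and 49.1%. For the other 8 genes this share lay between 4.93% (Acan, day 10) and 17.2% (Vcan, day 10).

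**Figure D5:**
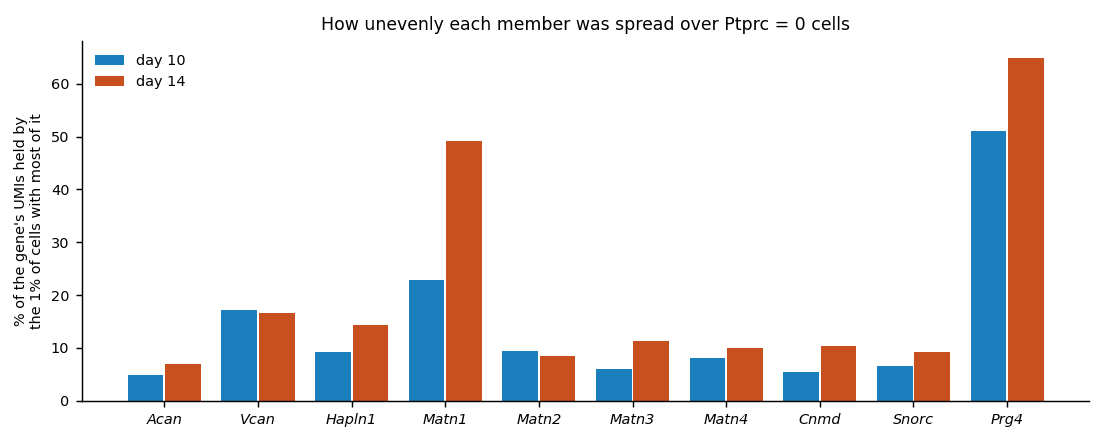
Share of each gene's UMIs (vertical axis, percent, from 0) that was held by the 1% of cells with the most UMIs of that gene, at days 10 (blue) and 14 (orange), among cells without Ptprc. Prg4 reached 51.0% and 64.9% and Matn1 22.9% and 49.1%, above the other 8 genes.

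Cells with at least 10 Prg4 UMIs numbered 46 at day 10 and 58 at day 14 and held 43.1% and 54.4% of Prg4 UMIs. Of these, 23 and 20 were Aspn-high, and 4 and 7 were Col2a1-high. Thbs4, encoding a thrombospondin of tendon and its sheath, measured 599 and 321 CPM in them, against 263 and 204 CPM in cells high in Aspn alone. Scx, a tendon transcription factor, measured 274 and 64.9 CPM, and Tnmd 252 and 46.5 CPM. For comparison, the tendon marker list (Tnmd, Scx, and Mkx) summed to 546 CPM in all Aspn-high cells at day 10. It summed to 418 and 458 CPM in Col2a1-low cells at days 10 and 14. An excess of Scx or Tnmd in the cells with Prg4 was thus not shown. Of genes known from synovial lining, Cd55 had 2 and 4 UMIs in all, and Creb5 had 30 and 65 UMIs (35.0 and 63.0 CPM). These cells were picked by their Prg4, so their Prg4 level is no finding, and no cell type was assigned to them.

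The likeness of patterns was measured over 23 groups of cells, split by day (10 or 14), Col2a1 bin, and Col10a1 bin, each with at least 50 cells, by the correlation of log2 of CPM plus 10 among 7565 genes. The groups share libraries, and the values are a description. Acan was most like Mia (r = 0.97), Hapln1 (0.97), and Col9a2 (0.96), and Hapln1 was most like Mia (0.99), Scin (0.98), and Zfp385b (0.98). Matn3 was most like Col11a2 (0.98), Papss2 (0.98), and Moxd1 (0.98), and Cnmd was most like Col11a2 (0.98), Sdc4 (0.98), and Trpv4 (0.98). Both thus shared their nearest gene, a chain of type XI collagen. Snorc had other neighbors, namely Eps8l2 (0.97), Susd5 (0.97), and R3hdml (0.97).

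Acan was the only one of the 10 with another of them among its nearest 3. Vcan was most like Plat (0.99), Ptn (0.99), and Col5a3 (0.99), and Matn2 was most like Pamr1 (0.99), Ctsk (0.99), and Megf6 (0.99). Matn4 was most like Ecrg4 (0.96), Fibin (0.95), and Kcnma1 (0.94), and Matn1 was most like Cdkn1c (0.94), Vps37b (0.94), and C430049B03Rik (0.93). Prg4, at a mean of 16.4 CPM, had the weakest matches, which were Epn2 (0.92), Sept9 (0.90), and Nexn (0.89).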

How the data were processed

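The authors deposited whole UMI counts per gene and cell barcode for 3 droplet libraries. Per the labels the reads were processed with Cell Ranger 3.0 on mm10, whereas the file headers name version 3.1.0. The strand setting was not given in the sources used here. The members, the lists, and the comparisons were chosen with earlier results of these data known. Cells within the limits and with 0 UMIs of Ptprc were binned by Col2a1, Col10a1, and Aspn UMIs per 10,000, with edges at 1, 10, and 100 and Aspn-high from 20. UMIs were summed per group and divided by the total (CPM), with exact Poisson intervals, and ratios had exact conditional binomial intervals and shares Clopper-Pearson intervals, all at 95%. A gene was called when past 2-fold with at least 50 UMIs in groups of at least 20 cells, and a group at 0 was set to 3 UMIs. Shares were taken after thinning cells to 2000 UMIs. No p-values were computed. All 10 genes were named, together with the context genes that were abundant or past 4-fold, and the 3 genes most like each. The code was tested on simulated data and used Python 3.11.15, numpy 2.4.6, scipy 1.17.1, and pandas 2.3.3.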

Additional observations from a re-analysis of the deposited data

Results flagged for a closer look

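Matn1 was lower in Col10a1-high than in non-hypertrophic cells at day 10 (log2 −0.30) and higher at day 14 (0.49), so that the comparison had opposite directions in the libraries. The day 10 value ranged from −0.66 to −0.01 and the day 14 value from 0.29 to 0.62 over the alternatives. The day 10 value rested on 111 Col10a1-high cells with lower Col2a1, which had 42.2 CPM of Matn1, while cells high in both collagens had 231 CPM against 234 CPM in non-hypertrophic cells. At day 14 the cells high in both had 107 CPM of Matn1 against 56.7 CPM. Hapln1 had log2 ratios of 0.069 at day 10 and −0.77 at day 14 in the same comparison, and its day 10 value ranged from −0.10 to 0.39. The same 111 cells had 421 CPM of Hapln1, and cells high in both collagens had 3679 and 2278 CPM of it at days 10 and 14. Matn4 was lower in Aspn-high than in Col2a1-high cells at day 10 (−0.81) and higher at day 14 (0.13, with a range of −0.16 to 0.21). Non-hypertrophic Col2a1-high cells had 804 and 744 CPM of Matn4, above the 405 and 615 CPM of Aspn-high cells on both days.

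From day 10 to day 14, Matn4 moved by a log2 ratio of 0.46 in Aspn-high cells and moved by −0.34 in Col2a1-high and −0.85 in Col10a1-high cells. Vcan moved by −0.048 (range −0.17 to 0.22) in Aspn-high and 0.14 in Col2a1-high cells. Each of these differences between days or groups was read from counting intervals of single libraries and was not tested.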

How the results depend on the processing

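Under 11 alternatives (no upper limit on genes, all deposited barcodes, an excess of skeletal UMIs, edges of 50 and 200, a denominator without the 10 most abundant genes, means of each cell's CPM, no cells of the top 10% in UMIs, no minimum of UMIs, and Aspn-high from 10 and from 50), 552 of 552 recomputed ratios past 2-fold kept their direction and stayed past 2-fold. The sizes were less stable: of 950 recomputed log2 ratios, 451 moved outside the counting interval of the main setting. The printed intervals thus do not cover the choice of settings. Leaving out the minimum of UMIs could not change a ratio, and all 99 of its ratios were the same. Of 192 recounts of genes past 2-fold, 184 stayed within 1.5 times. At day 7, the genes lower in Col2a1-high than in Col2a1-low cells numbered 1, but 3 without the upper limit on genes, 2 with all deposited barcodes, 2 with an excess of skeletal UMIs, and 2 with no minimum of UMIs. At day 14 over day 10 in Col10a1-high cells, the 1 lower gene became 3 without the top 10% of cells, 2 with an edge of 50, 2 with an edge of 200, and 2 with means of each cell's CPM. The added genes there were Cnmd (2.09-fold without the top cells), Matn4 (2.18-fold), and Hapln1 (2.13-fold with an edge of 50), and the cause was not tested. Shares of cells moved beyond their intervals in 173 of 200 recomputations at other depths, so they hold for 2000 UMIs only. The day 7 ratio of Acan in Col2a1-high over Col2a1-low cells ranged from 3.19 to 5.36 (log2) over the alternatives. No paired analysis was possible because each day had 1 library, and no replicate could be left out. At day 7, 116 Col2a1-high cells limit every value.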

Other observations

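Link protein genes are paired with proteoglycan genes in the mouse genome (GENCODE M21 annotation of GRCm38), with no gene annotated between the members of any of the 4 pairs. Vcan and Hapln1 are 43.7 kb apart, Acan and Hapln3 are 2 bases apart, Bcan and Hapln2 are 21.5 kb apart, and Ncan and Hapln4 are 2.22 kb apart. In the first of these pairs, Hapln1 was 49.7-fold higher and its neighbor Vcan 23.5-fold lower in Col2a1-high than in Col2a1-low cells at day 10. In the second, Hapln3 measured 4.06 CPM in both Col2a1-high and Col2a1-low cells at day 10, and 3.72 and 2.95 CPM at day 14, although its neighbor Acan differed 5.76- and 4.60-fold between these cells. Levels of the other pairs were not compared.

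Within Col2a1-high cells, Matn1 was found beside Matn3. Of the thinned cells with a Matn1 UMI, 93.4% also had a Matn3 UMI at day 10 and 81.7% at day 14, where 84.3% and 69.6% of all Col2a1-high cells had Matn3. The reverse share was 23.0% and 9.07%.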
